A study of Ovis aries with 6 samples.

Results

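The Toll-like receptors of sheep, TLR1 to TLR10, were followed in the somatic cells of milk, the leukocytes and epithelial cells that leave the udder with it. The members were the rows of the RPKM table (reads scaled to transcript length and library size) whose RefSeq transcript belongs to a gene with one of these symbols. All 10 symbols were matched, through 12 of the 49705 transcripts in the table; TLR3 and TLR6 had 2 transcripts each. The linseed group held 3 libraries from Comisana ewes given grass, hay and, over 3 weeks, a concentrate with extruded linseed at 20% of dry matter. The control group held 3 libraries from the same ewes, which were at day 90 of lactation, after 3 weeks on grass hay with a commercial concentrate. Each library came from the cells of 250 ml of milk taken at the start or the close of the trial. Linseed followed the control diet in each ewe, and diet and time therefore cannot be told apart. The labels give diet only through the letter of the sample title, read with the series design, and their animal identifiers tie linseed and control libraries of equal number to 1 ewe, for all 3 sheep.

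Toll-like receptors are membrane proteins that recognise molecules of microbes and start inflammation. TLR2, with TLR1 or TLR6 as a partner, binds bacterial lipoproteins, TLR4 binds lipopolysaccharide with the help of CD14 and LY96, and TLR5 binds flagellin, all at the cell surface. TLR3, TLR7, TLR8 and TLR9 sit in endosomes and recognise double-stranded RNA, single-stranded RNA or unmethylated DNA. Signals pass through the adaptors MYD88 or TICAM1 to NF-kappa-B and interferon regulatory factors, and in the udder they are part of the response to mastitis bacteria.

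Library totals, solved from the steps of the RPKM values, were 4941935 to 19912996 reads with linseed and 8805705 to 22644050 reads in controls. Markers of the labelled material were present in all 6 libraries: mammary epithelial genes summed to between 4739 and 79368 RPKM with linseed and between 17715 and 266299.6 RPKM in controls, and the leukocyte genes CD68 and CD3E were above 0 throughout. Milk protein genes took 1.31% of reads in linseed sheep 3 and 4.45% in control sheep 3, against 23.7% to 48.1% in the other 4 libraries. Since this is bulk RNA, fewer cells of a type and less RNA per cell cannot be told apart.

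TLR6, TLR4, TLR2 and TLR7 made up most of the receptor RNA, while TLR1, TLR3, TLR5, TLR8 and TLR10 were at or near the limit of detection. With linseed, the order by mean RPKM was TLR6 (8.06 ± 4.28 RPKM, SD, n = 3, transcript NM_001135927.1), TLR4 (7.78 ± 11.8), TLR2 (5.77 ± 2.78), TLR7 (4.42 ± 5.9), the second transcript of TLR6 (1.35 ± 1.07) and TLR9 (1.12 ± 0.699). In controls it was TLR4 (28.0 ± 46.3), TLR6 (9.91 ± 7.67), TLR7 (7.62 ± 6.82), TLR2 (4.16 ± 3.37), the second transcript of TLR6 (1.01 ± 1.18) and TLR9 (0.809 ± 1.04). A pair of neighbours was taken as apart where the mean of the log2(RPKM + 1) differences within libraries exceeded their SD. With linseed, none of the first 5 was apart from the next in the order, and TLR9, the sixth, was apart from TLR5 below it (0.69 ± 0.44). In controls, TLR6 was apart from TLR7 (0.37 ± 0.21), TLR7 from TLR2 (0.65 ± 0.21) and TLR2 from the second TLR6 transcript (1.28 ± 0.7), and TLR9 from TLR3 (0.42 ± 0.39), while TLR4 was not apart from TLR6 (-0.32 ± 2.46). The mean of TLR4 in controls rested on sheep 3: by median, TLR4 ranked 4 in controls and 3 with linseed, and TLR6 ranked 1 under both diets.

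**Figure D1:**
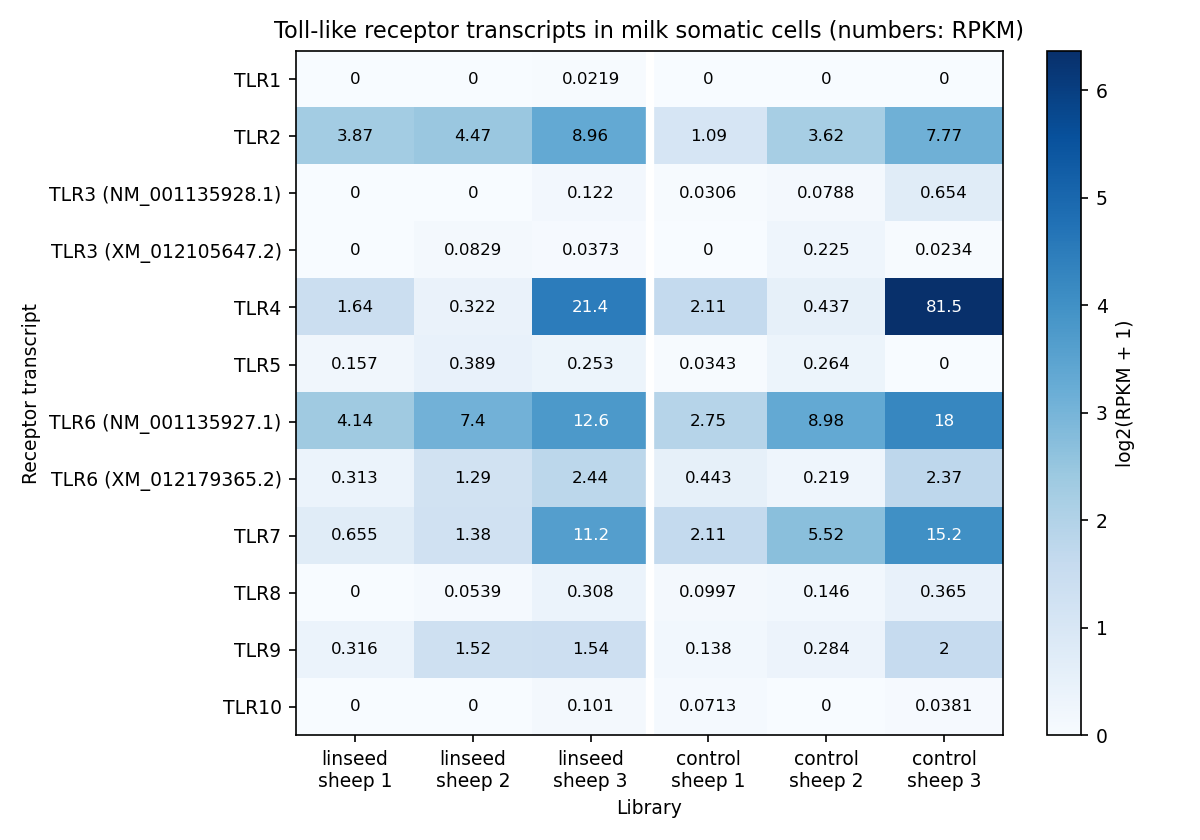
RPKM of the 12 Toll-like receptor transcripts (rows) in the 3 linseed and 3 control libraries (columns), with shading by log2(RPKM + 1). TLR4 stands at 21.4 and 81.5 RPKM in the linseed and control libraries of sheep 3 and at 2.11 RPKM or less in the other 4, and TLR1 has a value above 0 in 1 library.

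TLR2, the receptor for bacterial lipoproteins (NM_001048231.1, 2355 nt), had 3.87, 4.47 and 8.96 RPKM in linseed sheep 1, 2 and 3 and 1.09, 3.62 and 7.77 RPKM in control sheep 1, 2 and 3. These values came from 45 to 420 reads. TLR2 was higher with linseed in each of the 3 sheep, most in sheep 1, where the ratio was 3.56, against 1.24 and 1.15 in sheep 2 and 3, and the ranges of the diets overlapped. The log2 change was 0.55 ± 0.67 (SE), with a limma adjusted p of 0.699 (± 0.5 and 0.496 with the sheep as a block). Without control sheep 1 it was 0.01, without linseed sheep 3 it was 0.23, and without both libraries of sheep 1 it was 0.21. It was 1.05 without control sheep 3 and 0.96 with voom.

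TLR6, a partner of TLR2, was the receptor of highest median level. Its transcript NM_001135927.1 (2442 nt) had 4.14, 7.4 and 12.6 RPKM in linseed sheep 1, 2 and 3 and 2.75, 8.98 and 18.0 RPKM in control sheep 1, 2 and 3. It was higher with linseed in sheep 1 and lower in sheep 2 and 3, and the range of the linseed libraries lay within that of the controls. The log2 change was -0.09 ± 0.72 (SE; limma adjusted p = 0.961), and it was 0.09 in a voom fit to the recovered reads. A block by sheep gave an SE of 0.51 (limma adjusted p = 0.926). The other transcript, XM_012179365.2 (2589 nt), had 0.313, 1.29 and 2.44 RPKM with linseed and 0.443, 0.219 and 2.37 RPKM in controls, in the same order of sheep, and a log2 change of 0.27 ± 0.57 (limma adjusted p = 0.838). It was 1.02 with voom, and its sign turned without linseed sheep 3 (-0.06), without control sheep 2 (-0.02) and without both libraries of sheep 2 (-0.05). Here sheep 2 was higher with linseed by a ratio of 5.89, from 20 reads with linseed and 5 in the control. How reads common to both transcripts were divided is not given in the sources used here.

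TLR1, the other partner of TLR2, had 1 read over the 6 libraries, in linseed sheep 3 (0.0219 RPKM). In the other 5 libraries its count of 0 allows up to the value of 3 reads, which ranged from 0.0577 to 0.264 RPKM over the 6 libraries at a length of 2298 nt, a length solved from this 1 read alone. TLR10, a receptor of the same subfamily whose ligand is less well known, had 5 reads with linseed, all in sheep 3, and 5 in controls, 4 in sheep 1 and 1 in sheep 3. TLR10, TLR1 and TLR6 follow each other without another protein-coding gene between them in the sheep assembly ARS-UI_Ramb_v3.0, which was used for names and neighbours only. The division of reads between genes as alike as these can move their values. A difference between diets was not detectable at this depth for TLR1 or TLR10.

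TLR4, the lipopolysaccharide receptor (NM_001135930.1, 2598 nt), had 1.64, 0.322 and 21.4 RPKM in linseed sheep 1, 2 and 3 and 2.11, 0.437 and 81.5 RPKM in control sheep 1, 2 and 3. Sheep 3 stood far above the other sheep under both diets, and within every ewe the linseed value was the lower. The ratio of linseed to control was 0.776 in sheep 1, 0.737 in sheep 2 and 0.262 in sheep 3. In sheep 1 and 2 the reads were few: the counting intervals (exact Poisson, 95%) were 1.01 to 2.5 RPKM with linseed and 1.75 to 2.51 RPKM in the control for sheep 1, and 0.105 to 0.751 and 0.21 to 0.804 RPKM for sheep 2, so that the difference within these sheep was not detectable at this depth. In sheep 3 the intervals were 20.1 to 22.7 RPKM with linseed and 78.2 to 85.0 RPKM in the control. Such intervals cover counting error only. The log2 change over the 3 sheep was -0.75. Its SE was 0.53 with the sheep as a block (limma adjusted p = 0.377) and 1.41 without (limma adjusted p = 0.814). Its sign turned without control sheep 3 (1.02) and without linseed sheep 2 (0.10). It was -1.94 without linseed sheep 3, -1.91 without control sheep 2, -1.35 without control sheep 1 and -0.40 without linseed sheep 1. With both libraries of sheep 3 left out it was -0.18.

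TLR5, the flagellin receptor (NM_001135926.1), was low throughout, with 0.157, 0.389 and 0.253 RPKM in linseed sheep 1, 2 and 3 and 0.0343, 0.264 and 0 RPKM in control sheep 1, 2 and 3. These were 21 reads with linseed and 8 in controls, too few for the filter on level. In a limma fit of all transcripts with no filter, the log2 change of TLR5 was 0.21 ± 0.13 (SE) and its adjusted p 0.659, and the value was higher with linseed in 3 of 3 sheep. In sheep 1 and 2 the diets had equal reads (2 and 2, 6 and 6). There the higher value came from the smaller linseed totals, and the counting intervals overlapped. Sheep 3 had 13 reads with linseed and 0 in the control.

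TLR7, which binds single-stranded RNA (NM_001135059.1, 3396 nt), had the highest mean of the endosomal receptors under both diets, although TLR9 lay above it in linseed sheep 2. It had 0.655, 1.38 and 11.2 RPKM in linseed sheep 1, 2 and 3 and 2.11, 5.52 and 15.2 RPKM in control sheep 1, 2 and 3. TLR7 was the lower with linseed in every ewe, at ratios of 0.311, 0.25 and 0.736, and the diets overlapped because sheep 3 was high under both. The counting intervals of the diets did not overlap within any sheep: in sheep 1 they were 0.327 to 1.17 RPKM with linseed and 1.79 to 2.46 RPKM in the control, in sheep 2 they were 0.916 to 1.99 and 4.71 to 6.43 RPKM, and in sheep 3 they were 10.4 to 12.1 and 14.0 to 16.6 RPKM. Limma did not call TLR7: without a block the log2 change was -0.92 ± 0.86 (SE), with an adjusted p of 0.598. With the sheep as a block the error was ± 0.5 and the adjusted p 0.244. Leaving out 1 library moved the change to between -1.8 (without linseed sheep 3) and -0.31 (without control sheep 3), below 0 each time.

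TLR8, a further receptor for single-stranded RNA that neighbours TLR7 in the reference assembly, had 0, 0.0539 and 0.308 RPKM in linseed sheep 1, 2 and 3 and 0.0997, 0.146 and 0.365 RPKM in control sheep 1, 2 and 3. Its 20 reads with linseed and 23 in controls put it below the filter, and without the filter its log2 change was -0.11 ± 0.13 (SE; limma adjusted p = 0.782). TLR9, the receptor for unmethylated DNA (NM_001011555.1, 3199 nt), had 0.316, 1.52 and 1.54 RPKM with linseed and 0.138, 0.284 and 2.0 RPKM in controls, in the same order of sheep. Its mean over the 6 libraries, 0.966 RPKM, lay just below the filter of 1 RPKM. The value was higher with linseed in sheep 1 and 2 and lower in sheep 3, and the unfiltered limma fit gave a log2 change of 0.31 ± 0.53 (adjusted p = 0.836). TLR3, the receptor for double-stranded RNA, had 7 reads with linseed and 24 in controls for NM_001135928.1, of which control sheep 3 held 20. Its other transcript, XM_012105647.2, had 5 reads with linseed and 9 in controls. In the unfiltered limma fit the log2 changes of these TLR3 transcripts were -0.24 ± 0.17 and -0.05 ± 0.08, with adjusted p-values of 0.686 and 0.814.

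The receptors were then set against the 15891 transcripts whose mean over the 6 libraries reached 1 RPKM. Of the 12 receptor transcripts, 5 passed this filter: those of TLR2, TLR4, TLR7 and both of TLR6. Limma, on log2(RPKM + 1), called 0 of these 5 between linseed and control at an adjusted p under 0.05, as it called 0.0% of all tested transcripts. At an unadjusted p under 0.05 there were 0 of the 5, against 15.5% of all tested. With the sheep as a block, limma again called 0 of the 5, against 2.62% of all tested (1.28% higher and 1.34% lower), and 0 of the 5 had an unadjusted p under 0.05, against 27.0%. A voom fit to the recovered reads called 0 of all tested. Of the 5, TLR2 alone was higher with linseed in all 3 sheep and 2 were lower in all 3, TLR4 and TLR7, where 23.0% and 26.2% of all tested transcripts did so. None of the 5 had diets whose values did not overlap, as 21.1% of all tested had. The median log2 change of the 5 was -0.09, beside -0.12 for all tested transcripts.

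**Figure D2:**
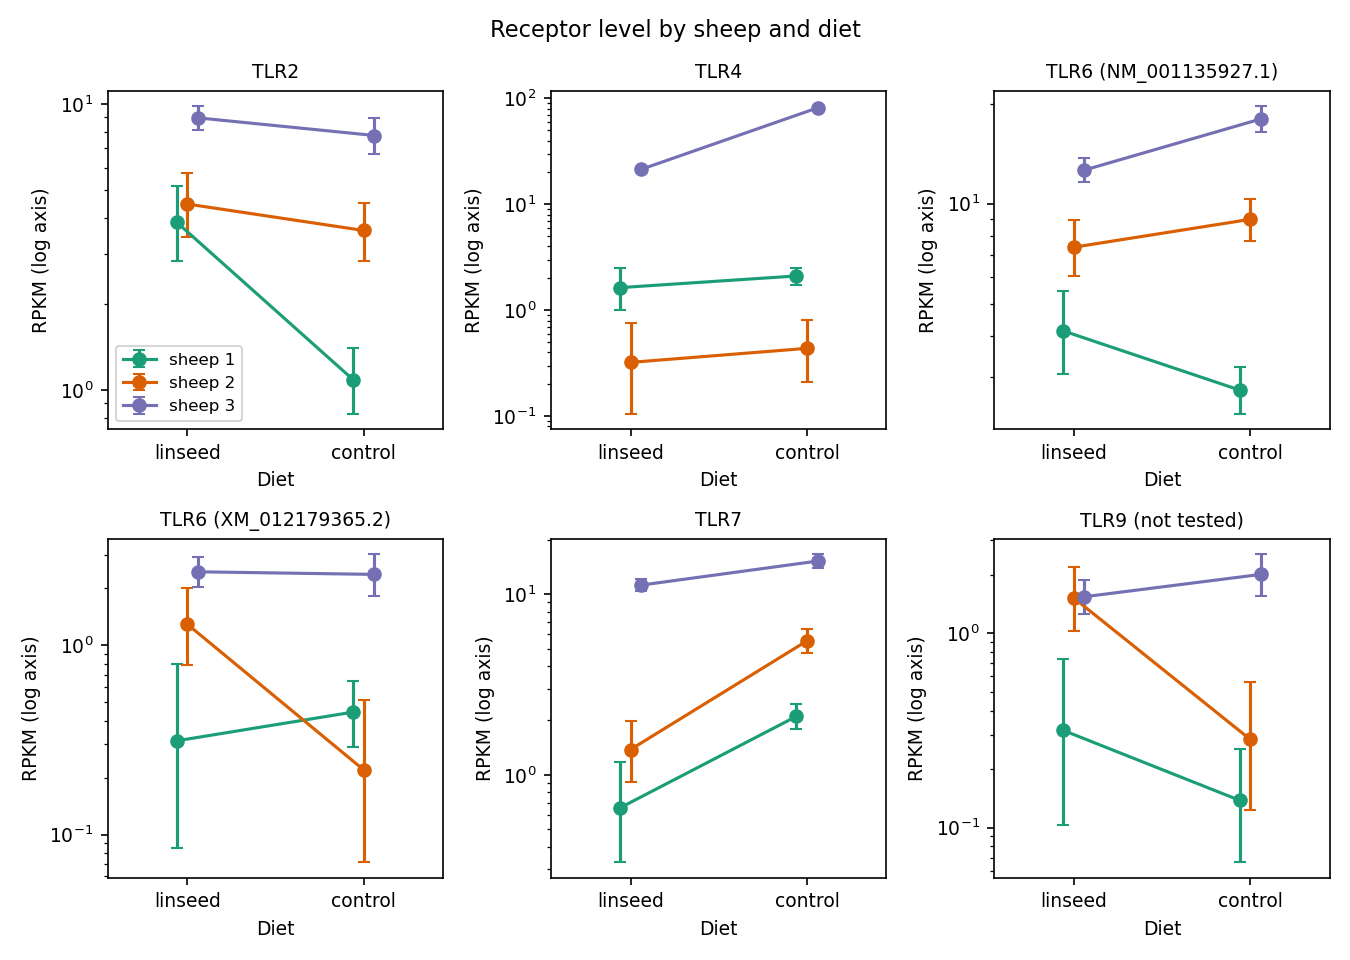
RPKM on a log axis for the 5 tested transcripts and TLR9, with linseed left and control right, 1 line per sheep; bars are exact Poisson 95% intervals for counting error. TLR7 is lower with linseed in every sheep, and sheep 3 is the highest line in every panel.

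The receptors varied more between ewes than between diets. For the 5 tested transcripts, differences between sheep took 93.8% (TLR4), 93.4% and 81.7% (TLR6), 82.5% (TLR7) and 75.4% (TLR2) of the sum of squares of log2(RPKM + 1), where the median over all tested transcripts was 43.9%. Diet took 0.3% (TLR6, NM_001135927.1) to 14.5% (TLR7), beside a median of 24.3% over all tested. There were 3 sheep and fewer diets, which favours the share of sheep, in these transcripts and in the medians. Both libraries of sheep 3 lay above the other 4 libraries for 5 of the 5 receptors, which held for 28.9% of all tested transcripts. When the library total was counted without milk protein genes, a comparison added after the data were seen, it held for 4 of the 5 and for 12.8% of all tested. The exception was TLR6 NM_001135927.1, with 12.8 RPKM in linseed sheep 3 against 14.0 RPKM in control sheep 2. The filter used the mean over all 6 libraries, and TLR6 XM_012179365.2 (mean 1.18 RPKM) reached it only through sheep 3. Its place among the 5 is therefore not independent of this count or of its share between sheep (81.7%). These are descriptions of 3 animals, and no test of sheep was made.

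Summed over the 12 transcripts, the receptors had 11.1, 16.9 and 59.0 RPKM in linseed sheep 1, 2 and 3 and 8.87, 19.8 and 128.0 RPKM in control sheep 1, 2 and 3. The receptors of the cell surface held most of this. The endosomal receptors made up 8.76%, 17.9% and 22.4% of the sum with linseed and 26.8%, 31.6% and 14.3% in controls, lower with linseed in sheep 1 and 2 and higher in sheep 3.

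Levels of cell type markers stood beside these as follows. The 5 matched neutrophil genes (of 11 listed) summed to 2187 to 3182 RPKM with linseed and 419.8 to 839.8 RPKM in controls, higher with linseed in each sheep and led by S100A8 and S100A9. The 8 matched macrophage and monocyte genes (of 13) summed to 758.0, 930.3 and 1315 RPKM with linseed and 85.0, 535.0 and 358.0 RPKM in controls. Within that list, CD68, C1QA, VSIG4 and TREM2 were higher with linseed in all 3 sheep, and MRC1 and ITGAM were lower in all 3. The 9 matched T and NK cell genes (of 14) summed to 76.1 to 138.0 RPKM with linseed and 7.69 to 569.0 RPKM in controls, the highest being control sheep 3. The 9 matched B and plasma cell genes (of 10) summed to 7.48 to 28.6 RPKM with linseed and 1.29 to 25.9 RPKM in controls, with TNFRSF17 at 0 in every library. Of the dendritic cell list 3 of 10 genes were matched, at 6.39 to 27.4 RPKM with linseed and 0.3 to 37.5 RPKM in controls, nearly all from CCR7. The 4 matched erythrocyte and stromal genes (of 9) summed to 3.85 to 84.0 RPKM with linseed and 3.94 to 32.0 RPKM in controls. Most of this came from PECAM1 in every library. COL1A2 was at 0.439 RPKM or less, and ALAS2 and COL3A1 were at 0 throughout. The sum of the 7 matched epithelial genes (of 12) was lowest in sheep 3, at 4739 RPKM with linseed and 17715 RPKM in the control. Nearly all of it came from CSN2, CSN3 and LALBA. Of the 7, KRT8 alone was not lowest in sheep 3 under both diets: its lowest control value was 17.6 RPKM, in sheep 1. Of 13 tested milk protein and milk fat globule genes (of 16 listed), limma called 0, while 1 was higher in every ewe and 7 lower in every ewe (median -1.65). The part of cell makeup in the values of the receptors and of their pathway was not tested.

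**Figure D3:**
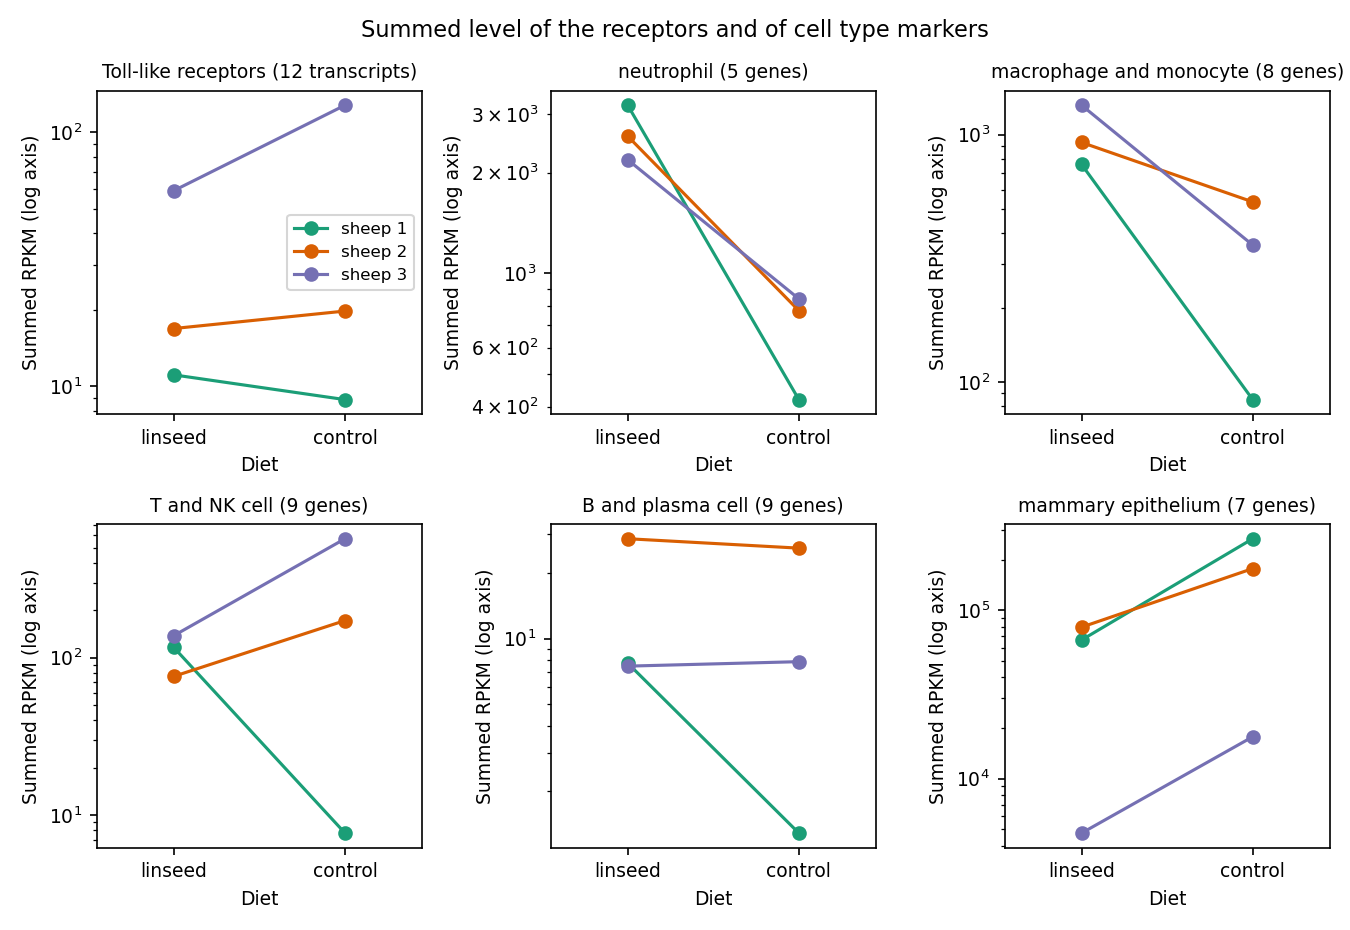
Summed RPKM on a log axis for the 12 receptor transcripts and for 5 lists of cell type markers, with linseed left and control right, 1 line per sheep. Neutrophil and macrophage sums are higher with linseed in every sheep, whereas the receptor sum is higher with linseed in sheep 1 alone.

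The genes that work with the receptors were described by role, each gene by its most abundant transcript. The 8 lists held 138 gene names, some of them synonyms of each other. Of these, 89 genes were matched and 79 passed the filter. Limma called 0 of the 79 without the block, and 6 had an unadjusted p under 0.05 (7.59%, beside 15.5% of all tested). With the sheep as a block it called 0 higher and 2 lower (2.53%, beside 2.62% of all tested). Of the 79, 9 were higher with linseed in all 3 sheep (11.4%) and 22 lower in all 3 (27.8%), beside 23.0% and 26.2% of all tested transcripts, and their median log2 change was -0.34. Both libraries of sheep 3 lay above the other 4 for 38 of the 79 (48.1%, beside 28.9% of all tested). When the total excluded milk proteins it was 25 of the 79 (31.6%, beside 12.8%). The filter on the mean over 6 libraries lets in genes through sheep 3 alone, in the 79 and in all tested.

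The co-receptors of TLR4 differed from each other. CD14, which hands lipopolysaccharide to the receptor, had 22.7, 21.5 and 85.2 RPKM in linseed sheep 1, 2 and 3 and 9.13, 30.7 and 98.1 RPKM in control sheep 1, 2 and 3, highest in sheep 3 under both diets. LY96 (MD-2), which binds lipopolysaccharide together with TLR4, had 179.8, 189.0 and 330.2 RPKM with linseed and 371.0, 330.0 and 299.0 RPKM in controls, well above TLR4 itself in every library. The log2 change was 0.18 ± 0.88 (SE) for CD14 and -0.57 ± 0.58 for LY96, and the sign of CD14 turned after quantile normalization (-0.06) and when the total excluded milk proteins (-0.05). Of the 9 tested co-receptors, chaperones and ligand carriers, limma called 0, while 2 were higher in every ewe and 1 lower in every ewe (median -0.57.) LY86 (MD-1), the partner of the receptor-like protein CD180, had 46.3, 41.7 and 20.6 RPKM with linseed and 0.604, 20.8 and 4.73 RPKM in controls (log2 change 2.59 ± 0.88; limma adjusted p = 0.264, or 0.0543 with the block). The lysosomal protease gene CTSB had a log2 change of 1.52 ± 0.72, and LBP, which carries lipopolysaccharide in body fluids, -1.37 ± 0.71. With libraries left out, the change of LBP was smallest without control sheep 1 (-0.64) and that of LY86 without both libraries of sheep 1 (1.44). UNC93B1, the chaperone of the endosomal receptors, was not matched and is not analysed here.

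Of the 3 adaptors tested, limma called 0, and their median was -0.67. MYD88, used by most of the receptors, had 5.0, 10.3 and 46.4 RPKM in linseed sheep 1, 2 and 3 and 10.5, 11.7 and 87.4 RPKM in control sheep 1, 2 and 3. As with TLR4, sheep 3 was highest under both diets and linseed had the lower value within every ewe. The log2 change was -0.67 ± 0.95 (SE; limma adjusted p = 0.744), or 0.29 without control sheep 3. In the blocked fit the SE was 0.53 and the limma adjusted p 0.427. TICAM1 (TRIF), the adaptor of TLR3 and of internalised TLR4, had 2.26, 3.88 and 4.5 RPKM with linseed and 0.977, 1.8 and 1.33 RPKM in controls, values that did not overlap. TICAM2 (TRAM), which links TLR4 to TICAM1, had 0.585, 0.242 and 1.98 RPKM with linseed and 2.23, 2.54 and 4.19 RPKM in controls and did not overlap either. Diets did not overlap for 21.1% of all tested transcripts. The log2 changes of TICAM1 and TICAM2 were 0.92 ± 0.53 and -1.11 ± 0.55, with limma adjusted p-values of 0.404 and 0.347, and 0.223 and 0.147 with the block.

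Of 13 tested kinases and ubiquitin ligases, limma called 0 without the block and 1 with it, while 0 were higher in every ewe and 4 lower in every ewe (median -0.41.) The one called with the block was TAB2, an adaptor of the kinase MAP3K7 (TAK1), with 1.68, 2.36 and 17.9 RPKM in linseed sheep 1, 2 and 3 and 20.3, 10.0 and 71.7 RPKM in control sheep 1, 2 and 3. TAB2 fell by 2.22 on the log2 scale in that fit (SE 0.53, limma adjusted p = 0.0461); without the block the SE was 0.9 and the adjusted p 0.292. The block called TAB2 under 1 of the 6 blocked settings run. MAP3K7 had a log2 change of -1.41 ± 0.67 and the ubiquitin ligase gene PELI1 -1.24 ± 0.64. IRAK4, the kinase that MYD88 recruits (-0.38 ± 0.91), and the ubiquitin ligase gene TRAF6 (-0.34 ± 0.69) lay within their errors.

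Transcription factors lay on both sides of 0: of 8 tested, limma called 0, and 2 were higher in every ewe and 3 lower in every ewe (median -0.51.) RELB, a subunit of NF-kappa-B, had 26.2, 27.4 and 26.0 RPKM with linseed and 9.03, 10.3 and 19.1 RPKM in controls. These values did not overlap, as held for 21.1% of all tested transcripts. The log2 change of RELB was 1.07 ± 0.58 (SE, limma adjusted p = 0.382). The subunit gene REL had -1.08 ± 0.85 and NFKB1 -0.56 ± 0.60. IRF3, which acts downstream of TICAM1, had 0.78 ± 0.62 and was higher in all 3 sheep, and the stress-induced factor gene ATF3 had -1.10 ± 0.71. REL was -0.1 without control sheep 3, and ATF3 was -0.22 without both libraries of sheep 1. RELA and IRF7 are not analysed here.

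Of 10 tested inhibitors of the pathway, limma called 0, and 1 was higher in every ewe and 2 lower in every ewe (median -0.26.) TNFAIP3 (A20), which removes ubiquitin from signalling proteins, had 8.21, 10.8 and 24.8 RPKM in linseed sheep 1, 2 and 3 and 6.57, 24.3 and 188.0 RPKM in control sheep 1, 2 and 3, so that control sheep 3 again stood apart (log2 change -1.23 ± 1.01). NFKBIA, which holds NF-kappa-B in the cytoplasm, had 0.10 ± 0.72 with a sign that turned after quantile normalization (-0.46) and when the total excluded milk proteins (-0.14), and CYLD, a deubiquitinase, -0.95 ± 0.64. TRAFD1, a feedback inhibitor, had -1.17 ± 0.83, or -0.44 without linseed sheep 1, and CYLD was -0.38 without control sheep 3. The cytokine signalling inhibitor gene SOCS1 was higher with linseed in sheep 1 and 2 and lower in sheep 3 (log2 differences of 4.04, 3.03 and -2.89). TOLLIP is not analysed here.

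The inflammatory genes that the receptors are known to induce also lay on both sides of 0. Of 16 tested, limma called 0 without the block and 1 with it, CXCL8, which attracts neutrophils, and 1 was higher in every ewe and 5 lower in every ewe (median -0.04.) CXCL8 fell by 2.65 on the log2 scale with the block (SE 0.59, limma adjusted p = 0.0441), and without the block the SE was 1.05 and the adjusted p 0.289. Of the 6 blocked settings run, 2 called CXCL8, and the adjusted p was 0.0646 to 0.328 in the other 4. The cytokine gene TNF had 16.6, 30.4 and 17.9 RPKM in linseed sheep 1, 2 and 3 and 0.393, 10.1 and 26.9 RPKM in control sheep 1, 2 and 3, higher with linseed in sheep 1 and 2 and lower in sheep 3. IL1B had 23.8, 26.9 and 182.0 RPKM with linseed and 2.48, 57.8 and 316.0 RPKM in controls, highest in sheep 3 under both diets. The anti-inflammatory cytokine gene IL10 had a log2 change of 0.68 ± 0.79, and IL6 was at 0 in the 3 linseed libraries and at 0.412 RPKM or less in controls. The superoxide dismutase gene SOD2 (-1.85 ± 0.74) and the soluble pattern receptor gene PTX3 (-2.08 ± 0.74) were lower in all 3 sheep and passed in neither fit.

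Interferon targets, a readout of the endosomal receptors among other sensors, differed between sheep. Of 10 tested, limma called 0, and 1 was higher in every ewe and 4 lower in every ewe (median -0.37.) In 9 of the 10 both libraries of sheep 3 lay above the other 4, or in 8 of the 10 when the total excluded milk proteins, beside 28.9% and 12.8% of all tested. IFIT1 and IFI44 reached the filter only through sheep 3. The ubiquitin-like gene ISG15 had 522.0, 273.0 and 989.0 RPKM with linseed and 11.9, 98.0 and 1632 RPKM in controls, which made log2 differences of 5.34 in sheep 1, 1.47 in sheep 2 and -0.72 in sheep 3. IFIT1, which binds viral RNA, had 133.0 RPKM in control sheep 3 and 8.27 RPKM or less in the other libraries (log2 change -1.63 ± 1.4). Of 11 pattern receptors outside the family, limma called 0, and 1 was higher in every ewe and 1 lower in every ewe (median 0.01.) The inflammasome sensor gene NLRP1 had 0.55 ± 0.52, the RNA sensor gene DHX58 0.97 ± 0.71 and the mannose receptor gene MRC1 -1.61 ± 0.78.

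**Figure D4:**
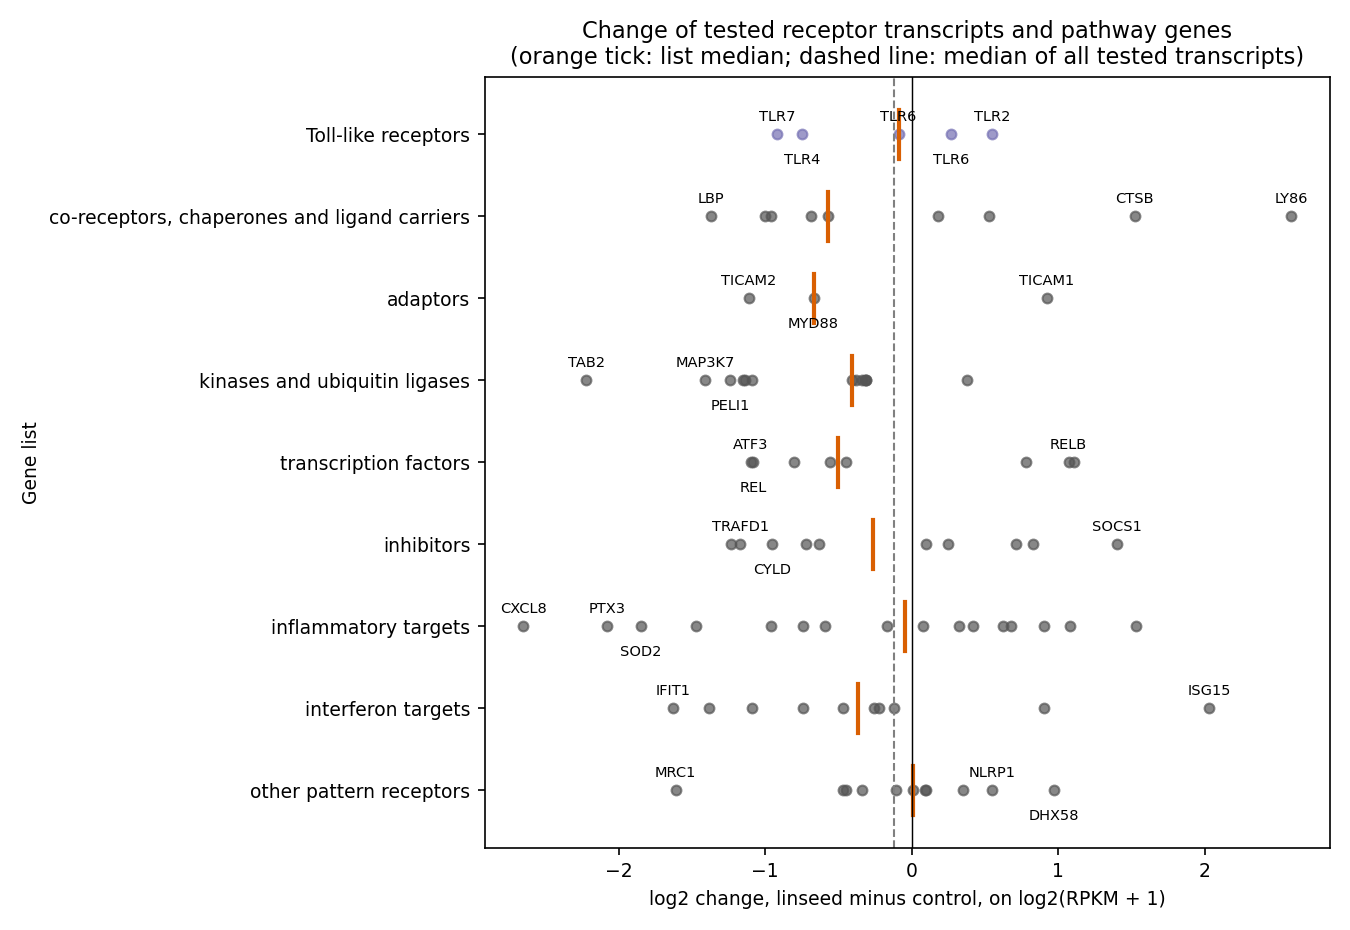
log2 change on log2(RPKM + 1), linseed minus control, of the 5 tested receptor transcripts and of the tested genes of 8 lists; points are genes, the orange tick is the median of a list and the dashed line the median of all tested transcripts (-0.12). The receptors span -0.92 to 0.55, and the lists spread to both sides of 0.

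The genes whose profile over the 6 libraries was most like that of each receptor were found by the root mean square difference between centred log2(RPKM + 1) values, over 5975 genes. For TLR2 these were WRAP73 (0.12), ARRB1 (0.13) and PDE1B (0.131), where the median gene differed by 0.9. For TLR6 they were SIK3 (0.134), RP2 (0.139) and SELP (0.185), with a median of 0.87. For TLR7 they included FSIP1 (0.173) and TASL (0.198), with a median of 1.06. Some of these genes were near 0 in sheep 1, where this scale flattens differences. SELP had 0 RPKM with linseed and 0.086 RPKM in the control there, PDE1B 0.0373 RPKM in the control and FSIP1 0.134 RPKM with linseed. For TLR4 the distances were larger, and the nearest were THBD (0.544), VNN2 (0.546) and MKNK1 (0.568), with a median of 2.03. THBD had 9.78, 11.5 and 102.0 RPKM in linseed sheep 1, 2 and 3 and 19.3, 9.91 and 260.0 RPKM in control sheep 1, 2 and 3, high in sheep 3 as TLR4 was. Libraries of one sheep share an animal, and every pair of values within a library shares its depth, so these distances describe the 6 libraries and carry no test.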

How the data were processed

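RNA of milk somatic cells was made into TruSeq libraries and read on a HiSeq2000, per the labels' protocols. The submitters' processing notes name Trimmomatic 0.33; which aligner, build and counter followed is not given in the sources used here. RPKM values were deposited by the authors with decimal commas, 1 column per library. Symbols came from the RefSeq table of ARS-UI_Ramb_v3.0, version ignored: 15836 of 49705 transcripts (31.9%) matched. Low values were whole multiples of 1 read, from which totals, lengths and reads were solved (tolerance 0.002 reads), and the reads summed to 99.43% to 99.82% of the totals.

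Transcripts whose mean reached 1 RPKM were compared as log2(RPKM + 1), a scale that understates changes of low transcripts, with limma 3.58.1 in R 4.3.3 (mean-variance trend, two-sided, Benjamini-Hochberg adjustment over all tested transcripts, adjusted p under 0.05 called). The script was tested on simulated data. The main fit had no block. Same-numbered libraries come from the same ewe, and the correlations of their deviations from the group means were 0.18, 0.25 and 0.4 in sheep 1, 2 and 3. Between libraries of different ewes they were -0.4 to 0.24, the highest for linseed sheep 2 with control sheep 1. Each ewe gave 1 library per diet. The main fit did not use this pairing, and its p-values measure the spread between libraries within a diet. Those with the block measure the spread of the differences within 3 ewes.

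The members and gene lists were chosen with earlier results of these data known. Named genes were every receptor transcript, the 3 genes of smallest p on each list, a fixed set of defining pathway genes, and the 3 nearest profiles of each tested receptor. Other settings covered pseudocount, filter, block, scaling, libraries or sheep left out, and voom on the recovered reads. A few genes that this rule names are not reported here. No sequence of the receptors was used here.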

Additional observations from a re-analysis of the deposited data

How the results depend on the processing

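No receptor transcript was called in any of the 23 settings run, the 6 with a replicate block included. The number of transcripts called over the whole table was 0 without the block, 416 with the replicate block, 152 with the replicate block when the total excluded milk proteins, and 0 under the other 4 blocked settings; it was 0 with every library or sheep left out. Without a block, 2464 had an unadjusted p under 0.05, and 2192 did so in voom. That number depended on the libraries: it was 1043 without linseed sheep 2, 1178 without linseed sheep 1, 1563 without control sheep 1 and 3888 without linseed sheep 3, and 572, 929 and 4628 without both libraries of sheep 1, 2 and 3.

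The median change of the tested receptors, -0.09, was -0.75 at a mean of at least 5 RPKM, where TLR4, TLR6 and TLR7 alone remain, -0.29 when the total excluded milk proteins, with or without the replicate block, and 0.09 with voom on recovered reads. It ranged from -0.72 (without control sheep 1) to 0.72 (without control sheep 3) when libraries or sheep were left out. Over all tested transcripts the median was -0.12, or -0.28 when the total excluded milk proteins and -0.01 after quantile normalization. It was 0.11 at a mean of at least 5 RPKM, -0.3 without control sheep 1 and 0.19 without control sheep 3.

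TLR7 stayed below 0 in the 23 settings run, at -1.8 to -0.31. TLR2 stayed above 0 in the 22 settings that tested it, at 0.01 to 1.05, the lowest value being close to no change. The change of TLR6 NM_001135927.1 turned to 0.09 with voom. With libraries or sheep left out it ranged from -0.72 to 0.45, that of TLR6 XM_012179365.2 from -0.06 to 0.72 and that of TLR4 from -1.94 to 1.02. CD14 turned to -0.06 after quantile normalization and -0.05 without milk proteins in the total, and NFKBIA to -0.46 and -0.14, with or without the block. With libraries or sheep left out, further signs turned within the ranges of CD14 (-0.65 to 1.0), NFKBIA (-0.38 to 0.84), IL1B (-1.45 to 1.81), IL10 (-0.08 to 1.18), MYD88 (-1.51 to 0.29), IRAK4 (-1.21 to 0.45), TRAF6 (-0.75 to 0.18), NFKB1 (-1.12 to 0.07), TNFAIP3 (-2.29 to 0.03) and IFIT1 (-2.84 to 0.34). The cause of these turns was not tested. No sign turned, but the size varied widely, for SOCS1 (0.07 to 3.54), ISG15 (0.37 to 3.86), TNF (0.31 to 2.58), NLRP1 (0.05 to 0.86) and DHX58 (0.28 to 1.63). CXCL8 was called with the replicate block alone (adjusted p = 0.0441) and with milk proteins left out as well (0.0484, limma), and TAB2 with the replicate block alone. At the lowest depth 3 reads of a receptor were worth 0.15 to 0.264 RPKM, which limits TLR1, TLR3, TLR5, TLR8 and TLR10.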
